A study of Sus scrofa with 6 samples.

Results

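The 10 genes described here encode enzymes that make fatty acids from acetyl units, lengthen them, insert double bonds and activate them: ACLY, ACSS2, ACACA, FASN, ELOVL6, SCD, ELOVL5, FADS2, FADS1 and ACSL3. They were chosen by name, with earlier results of these data known. Their shares set beside those of all genes therefore describe them and are not a test. Each had a row in a count table of 35670 pig genes and passed the filter that left 17920 genes for testing. RNA came from the ampulla, the wide part of the pig oviduct in which fertilisation takes place, at 2 stages of the cycle. The early luteal stage, when corpora lutea form and progesterone rises, has 3 libraries, and the post-ovulatory stage, just after the eggs are released, has 3. The labels give female sex and call the material ampullary cells of the oviduct, taken as tissue. Breed, age, cycle day and whether each library is a separate animal are left unstated there, so p-values measure the spread between libraries, which may be technical.

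Fatty acids are built in the cytosol. ACLY splits citrate that has left the mitochondrion, and ACSS2 activates free acetate; both yield acetyl-CoA, which ACACA carboxylates to malonyl-CoA in the committed step. FASN joins these units into palmitate, ELOVL6 lengthens palmitate, and SCD introduces the double bond that makes oleate and palmitoleate. FADS2, FADS1 and ELOVL5 convert dietary essential fatty acids into long polyunsaturated ones such as arachidonate, the precursor of prostaglandins, and ACSL3 attaches coenzyme A to fatty acids at the endoplasmic reticulum and lipid droplets. In mammals many of these genes are targets of the SREBP transcription factors, which also drive cholesterol synthesis.

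Library totals ran from 7370723 to 30954222 counts. Values are CPM, each library's counts rescaled to a common total after TMM scaling (trimmed mean of M values), and they are compared between libraries for 1 gene at a time and not between genes, since transcript lengths were not used. Early luteal replicate 2 stood apart, at 176 on a first principal component that held 55.9% of the variance, with the other libraries between -51.0 and 2.39. That component did not part the stages: early luteal replicate 1, at -42.8, lay among the post-ovulatory libraries (-51.0 to -36.4). The median correlation of log2 CPM was 0.86 within early luteal, 0.94 within post-ovulatory and 0.92 between the stages. Epithelial markers were present throughout: the adhesion molecule EPCAM lay between 494 and 1093 CPM in early luteal and between 385 and 539 CPM in post-ovulatory libraries. The oviduct glycoprotein OVGP1 ranged from 292 to 2356 CPM in early luteal and from 156 to 10688 CPM in post-ovulatory libraries. Of 5 tested markers listed for secretory epithelial cells, EPCAM was the 1 with a higher early luteal mean, and 4, OVGP1 among them, had a lower one. EPCAM, KRT8 and KRT18 of that list mark epithelium in general. In tissue RNA, fewer cells of a type and less RNA per cell cannot be told apart.

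Of the 10 genes, 9 had a lower level in early luteal than in post-ovulatory ampulla, and the median log2 fold change (early luteal over post-ovulatory, here and throughout) was -0.81, against -0.03 over all tested genes, of which 51.8% were lower. The largest differences were in the 2 front-end desaturases, FADS2 (3.25-fold lower) and FADS1 (2.57-fold lower), followed by ACLY (2.09-fold lower) and SCD (2.06-fold lower). FASN and ACACA lay below every post-ovulatory library in all early luteal libraries, and by far the most in replicate 2. ELOVL6, ELOVL5 and ACSL3 overlapped between the stages, and ACSS2 was the gene with the higher early luteal mean. With a threshold of 0.05 on the adjusted p, the edgeR quasi-likelihood test called 0 of the 10 and 0% of all tested genes. At an unadjusted p under 0.05 it counted 4 of the 10 (ACLY, SCD, FADS1 and FADS2), all lower, where 3.54% of all tested genes were lower and 3.57% higher at that level. Without early luteal replicate 2 that count was 6, all lower, where 4.22% of genes were lower. DESeq2 called FADS1 and FADS2, both lower, where it called 0.544% of 17285 genes lower and 0.48% higher. Limma voom with sample quality weights called 0 of the 10 and 0.0502% of all genes.

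**Figure D1:**
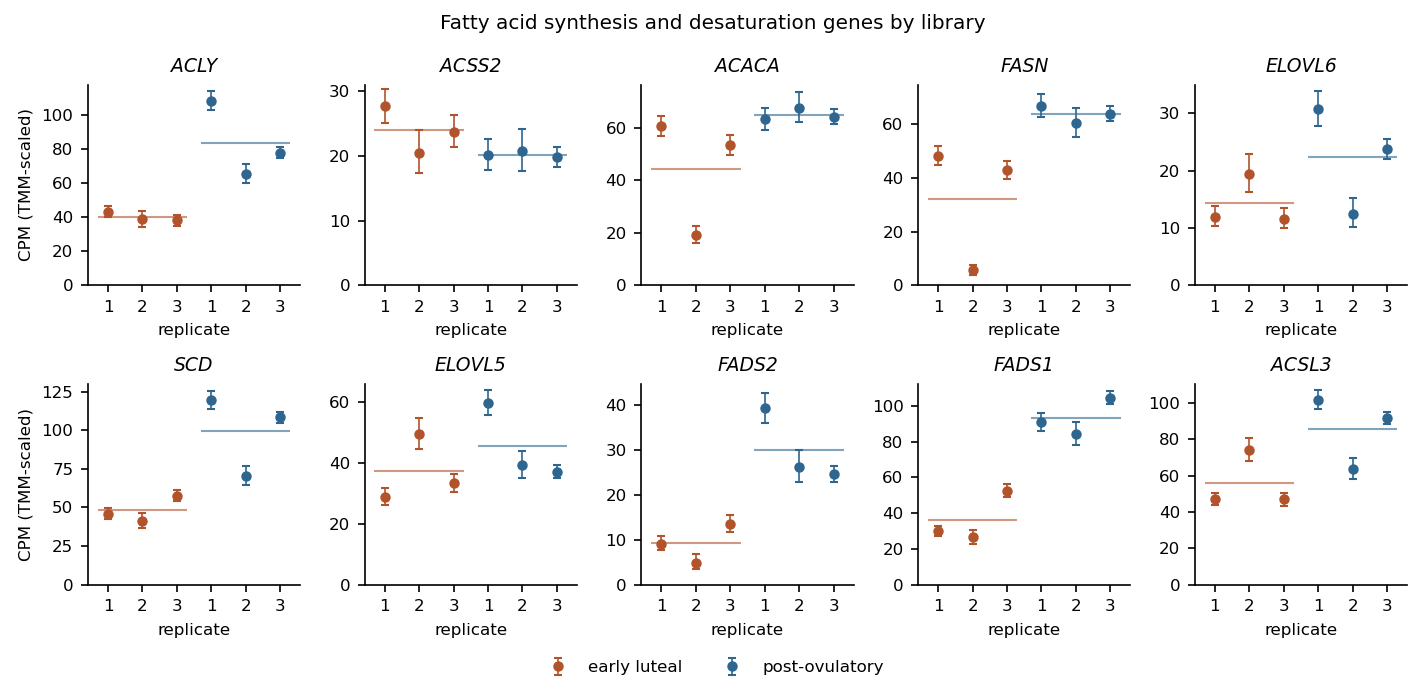
CPM of each gene in every library, with early luteal replicates left of post-ovulatory ones; whiskers are exact 95% counting intervals and lines are stage means (n = 3 each). All early luteal points lie below all post-ovulatory ones for ACLY, ACACA, FASN, SCD, FADS2 and FADS1, and FASN in early luteal replicate 2 lies at 5.55 CPM.

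Of the acetyl-CoA suppliers, ACLY had the lower and ACSS2 the higher early luteal mean. ACLY (ENSSSCG00000017421; RefSeq gene on chromosome 12, 20796678 to 20841301, build Sscrofa11.1) stood at 43.2, 38.9 and 38.2 CPM in early luteal replicates 1, 2 and 3, against 108, 65.4 and 78.0 CPM in post-ovulatory replicates 1, 2 and 3. The early luteal libraries lay close together, all below the lowest post-ovulatory one, and the post-ovulatory libraries were more spread. The log2 fold change was -1.07 ± 0.27 (SE; 95% interval -1.69 to -0.44; edgeR quasi-likelihood, adjusted p = 0.594, unadjusted p = 0.00396). ACSS2 (ENSSSCG00000007286; chromosome 17, 38260152 to 38315764) stood at 27.6, 20.5 and 23.7 CPM in early luteal libraries, against 20.1, 20.7 and 19.8 CPM in post-ovulatory libraries. Early luteal replicates 1 and 3 were above every post-ovulatory library and replicate 2 among them. Its log2 fold change was 0.25 ± 0.30 (95% interval -0.43 to 0.92; edgeR, adjusted p = 0.857), which leaves room for a difference in either direction. The ratio of ACLY to ACSS2 counts within a library, which no scaling of libraries can alter, was 1.56, 1.90 and 1.61 in early luteal and 5.39, 3.16 and 3.95 in post-ovulatory replicates 1, 2 and 3, with no overlap. This ratio was chosen after its values were seen, so it carries no test.

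ACACA and FASN, the carboxylase and the synthase of the pathway, had their lowest level by a wide margin in early luteal replicate 2, and its omission made both differences smaller and their errors smaller too. ACACA (ENSSSCG00000017694; chromosome 12, 38580916 to 38875067) stood at 60.5, 19.2 and 53.4 CPM in early luteal libraries, against 63.1, 67.6 and 64.1 CPM in post-ovulatory libraries. FASN (ENSSSCG00000029944; chromosome 12, 922405 to 937560) stood at 48.2, 5.55 and 42.9 CPM in early luteal libraries, against 67.0, 60.6 and 64.0 CPM in post-ovulatory libraries. The stages did not overlap in either gene, and the post-ovulatory libraries were nearly level, with an SD on the log2 scale of 0.051 for ACACA and 0.072 for FASN, against 0.90 and 1.74 in early luteal libraries. For ACACA the gap was within counting error. The exact 95% interval was 56.7 to 64.5 CPM in early luteal replicate 1 and 59.0 to 67.5 CPM in post-ovulatory replicate 1. In early luteal replicate 2 the FASN value came from 41 counts, with an exact 95% interval of 3.99 to 7.54 CPM that covers counting error only. The log2 fold change was -0.55 ± 0.40 for ACACA and -0.98 ± 0.63 for FASN (SE; edgeR, adjusted p = 0.778 and 0.748). Without early luteal replicate 2 it was -0.19 ± 0.18 for ACACA and -0.49 ± 0.18 for FASN (edgeR, adjusted p = 0.776 and 0.599). The unadjusted p in edgeR was then 0.327 for ACACA and 0.0330 for FASN, against 0.211 and 0.157 with all libraries. The same library also had the lowest level of SCD, FADS1 and FADS2, whereas among early luteal libraries it had the highest level of ELOVL5, ELOVL6 and ACSL3.

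The 3 desaturases were all lower in early luteal ampulla, FADS2 and FADS1 by more than ACLY and SCD by about as much as ACLY. SCD (ENSSSCG00000010554; chromosome 14, 111461560 to 111478033), the enzyme that makes monounsaturated fatty acids, stood at 45.9, 41.5 and 57.6 CPM in early luteal libraries, against 120, 70.5 and 108 CPM in post-ovulatory libraries. FADS2 (ENSSSCG00000013072; chromosome 2, 9633941 to 9666666), the delta-6 desaturase, stood at 9.15, 4.88 and 13.6 CPM in early luteal libraries, against 39.3, 26.3 and 24.6 CPM in post-ovulatory libraries. FADS1 (ENSSSCG00000024015; chromosome 2, 9735425 to 9747405), the delta-5 desaturase, stood at 29.8, 26.4 and 52.5 CPM in early luteal libraries, against 91.1, 84.5 and 105 CPM in post-ovulatory libraries. In all 3 genes the highest early luteal library was replicate 3 and still lay below every post-ovulatory library. The log2 fold change was -1.04 ± 0.29 for SCD, -1.70 ± 0.45 for FADS2 and -1.36 ± 0.32 for FADS1 (SE; edgeR quasi-likelihood, adjusted p = 0.632, 0.615 and 0.568). DESeq2 gave an adjusted p of 0.0301 for FADS2, 0.0262 for FADS1 and 0.113 for SCD. Without early luteal replicate 2, an alternative chosen after seeing the data, DESeq2 still called FADS2 and FADS1 (adjusted p = 0.0281 and 0.0463), where it called 0.602% of genes lower.

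FADS1 and FADS2 lie on the same chromosome, with 68759 bases between the annotated genes, and FADS3 lies 6589 bases from FADS2. FADS3, a family member without a settled role in these conversions, was low, at 3.61, 0 and 4.19 CPM in early luteal and 1.86, 7.20 and 1.79 CPM in post-ovulatory replicates, with overlap. The ratio of FADS2 to FADS1 counts was 0.307, 0.185 and 0.258 in early luteal and 0.432, 0.311 and 0.236 in post-ovulatory libraries, with overlap. SCD5, a second stearoyl-CoA desaturase gene, stood at 163, 52.4 and 51.3 CPM in early luteal and 88.6, 127 and 140 CPM in post-ovulatory libraries, so that a single early luteal library was the highest of all. FADS3 and SCD5 were picked for their kinship after their values were seen. FADS2 overlaps 2 annotated long noncoding genes, and ELOVL6 and ACACA overlap 1 other gene each. The sources name no strand setting for the counting, so reads of overlapping genes may be shared.

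**Figure D2:**
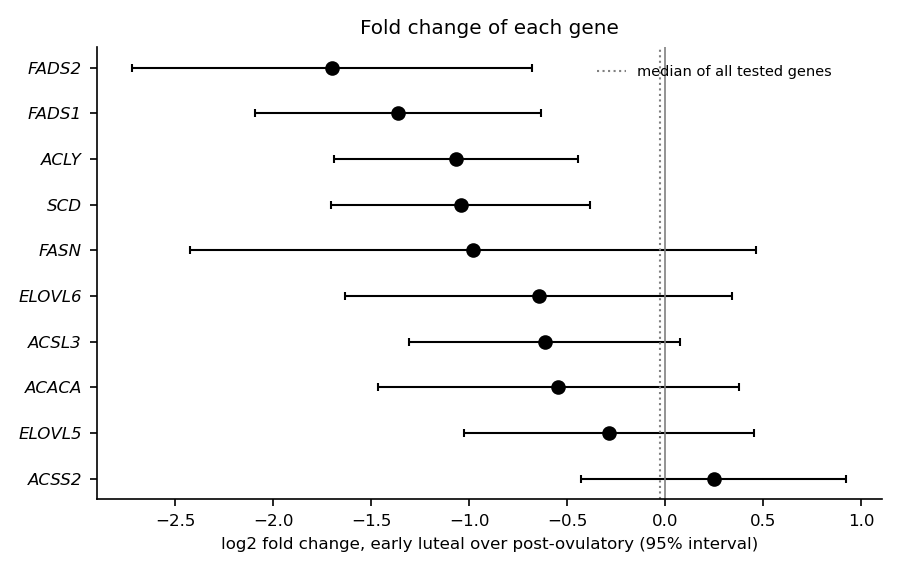
Log2 fold change of each gene (early luteal over post-ovulatory) from edgeR with its 95% interval; the dotted line is the median of all tested genes. The intervals of FADS2, FADS1, ACLY and SCD end below 0, before any adjustment for the number of genes tested, and that of ACSS2 is centred above 0.

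The elongases and the acyl-CoA synthetase showed smaller differences. ELOVL6 (ENSSSCG00000036236; chromosome 8, 112038670 to 112190079), which lengthens palmitate, stood at 12.0, 19.4 and 11.6 CPM in early luteal libraries, against 30.7, 12.5 and 23.7 CPM in post-ovulatory libraries. ELOVL5 (ENSSSCG00000024149; chromosome 7, 46860768 to 46932945), which lengthens polyunsaturated chains, stood at 28.9, 49.3 and 33.4 CPM in early luteal libraries, against 59.7, 39.3 and 37.0 CPM in post-ovulatory libraries. ACSL3 (ENSSSCG00000016223; chromosome 15, 124741986 to 124816955) stood at 47.0, 74.4 and 46.9 CPM in early luteal libraries, against 102, 63.8 and 91.6 CPM in post-ovulatory libraries. In each of the 3 genes early luteal replicate 2 was the highest of its stage, above post-ovulatory replicate 2, and post-ovulatory replicate 1 was the highest of all. The log2 fold change was -0.65 ± 0.43 for ELOVL6, -0.29 ± 0.32 for ELOVL5 and -0.61 ± 0.30 for ACSL3 (SE; edgeR, adjusted p = 0.758, 0.847 and 0.692). Without early luteal replicate 2 it was -0.92 ± 0.40 for ELOVL6, -0.54 ± 0.27 for ELOVL5 and -0.87 ± 0.25 for ACSL3 (edgeR, adjusted p = 0.604, 0.623 and 0.586). ELOVL5 came closest to no difference without post-ovulatory replicate 1, at -0.05, and ELOVL6 stood at -0.36 in that fit.

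**Figure D3:**
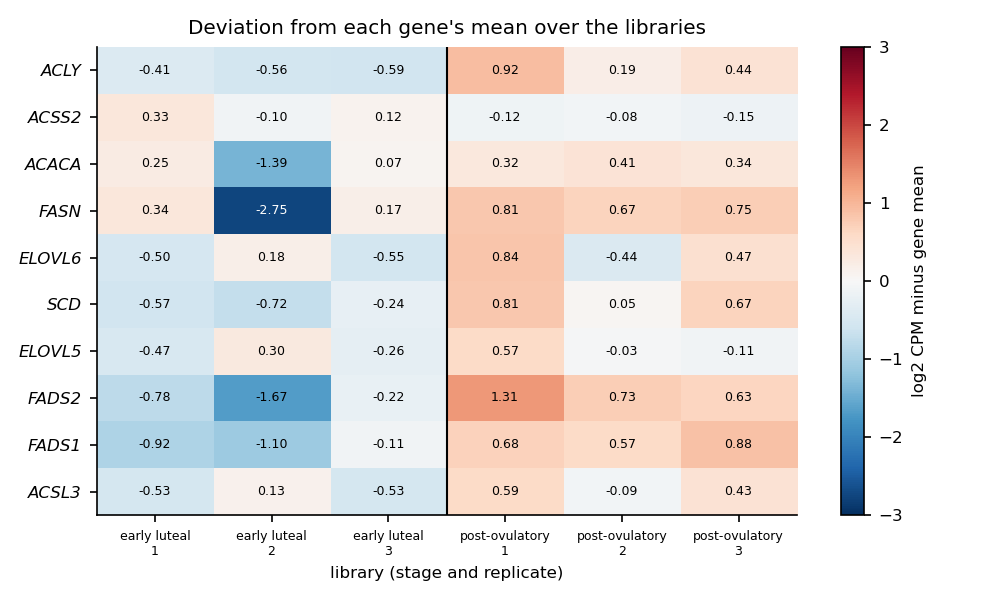
Deviation of each gene's log2 CPM from its mean over the 6 libraries, with early luteal libraries left of the line and post-ovulatory ones right of it; blue is lower and red is higher. Early luteal replicate 2 holds both the deepest blue cells (FASN at -2.75, FADS2 at -1.67 and ACACA at -1.39) and positive values for ELOVL5 and ELOVL6.

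Across the genes, post-ovulatory replicate 1 held the highest level of 7 of the 10, and post-ovulatory replicate 2 the lowest of its stage in 6. Early luteal replicate 2 held the lowest level of all libraries in 5. The mean deviation of the 10 genes on the log2 scale was -0.33, -0.77 and -0.21 in early luteal replicates 1, 2 and 3, against 0.67, 0.20 and 0.44 in post-ovulatory replicates 1, 2 and 3. The stages were fully apart, with early luteal below, in 6 genes, where 9.57% of all tested genes were; with library scaling by the upper quartile the count was 5. None of the 10 had early luteal fully above, where 7.61% of all tested genes did. Leaving out early luteal replicate 2 moved that 6 to 9, where 14.1% of genes were. With any single library left out, 9 of the 10 genes were lower, and the median of the 10 ran from -0.98 to -0.71.

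**Figure D4:**
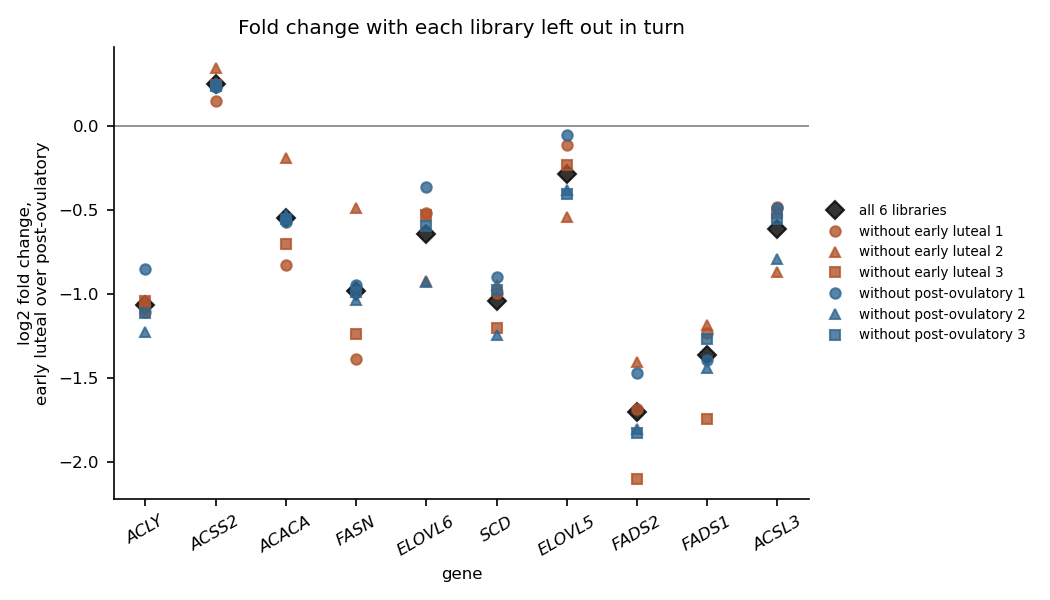
Log2 fold change of each gene (early luteal over post-ovulatory) with all 6 libraries (black) and with each library left out in turn (orange, early luteal; blue, post-ovulatory). Leaving out early luteal replicate 2 moves FASN to -0.49 and ACACA to -0.19, while FADS2 stays at -1.41 or lower.

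The other enzymes of the pathway had a median near that of all genes. Of 31 tested genes for mitochondrial synthesis, other elongases, desaturases, their electron donors and other acyl-CoA synthetases, 18 were lower, with a median log2 fold change of -0.13 (0.05 without early luteal replicate 2). None passed an adjusted p of 0.05 in edgeR or DESeq2, and 2 lower genes had an unadjusted p under 0.05 in edgeR. For this list and those below, the shares of all tested genes at that unadjusted level were 3.54% lower and 3.57% higher. DESeq2 called 0.544% of genes lower and 0.48% higher. CYB5B, a cytochrome b5, stood at 32.8, 28.5 and 31.7 CPM in early luteal libraries, against 65.4, 41.4 and 44.1 CPM in post-ovulatory libraries. MECR, a reductase of mitochondrial fatty acid synthesis, stood at 38.0, 40.4 and 48.7 CPM in early luteal and 69.9, 55.6 and 60.4 CPM in post-ovulatory libraries. The stages did not overlap in either, but both were named for their low p. Of the 31 genes, 4 had early luteal fully below and 2 fully above, where 9.57% and 7.61% of all tested genes did. ELOVL2, a polyunsaturated elongase, was set by post-ovulatory replicate 1, at 2.06, 2.17 and 1.86 CPM in early luteal and 22.9, 2.78 and 2.56 CPM in post-ovulatory libraries. ACSF2, a mitochondrial acyl-CoA synthetase and the gene with the highest count level of the list, stood at 328, 148 and 352 CPM in early luteal and 295, 355 and 321 CPM in post-ovulatory libraries.

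Genes that export citrate and supply cytosolic NADPH, the reductant of fatty acid synthesis, were mostly lower: 8 of 11, with a median of -0.77 (-0.48 without early luteal replicate 2). None passed an adjusted p of 0.05 in edgeR or DESeq2, and 2 lower genes had an unadjusted p under 0.05 in edgeR, a count that was 0 without early luteal replicate 2. Transketolase, TKT, stood at 53.3, 41.1 and 67.1 CPM in early luteal libraries, against 157, 69.8 and 92.9 CPM in post-ovulatory libraries. MTHFD1, a folate enzyme that generates NADPH, stood at 59.1, 56.4 and 59.4 CPM in early luteal and 258, 77.2 and 84.3 CPM in post-ovulatory libraries. Neither gene overlapped between the stages, and post-ovulatory replicate 1 was far above the other libraries in MTHFD1. Of the 11 genes, 5 had early luteal fully below and 0 fully above, where 9.57% and 7.61% of all tested genes did. The citrate carrier SLC25A1, which delivers the substrate of ACLY, stood at 27.2, 7.18 and 37.5 CPM in early luteal and 65.4, 34.1 and 56.4 CPM in post-ovulatory libraries and overlapped. Citrate synthase, CS, stood at 136, 89.0 and 149 CPM in early luteal and 137, 161 and 105 CPM in post-ovulatory libraries.

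Among regulators, 13 of 19 tested genes were lower, with a median of -0.21 (0.01 without early luteal replicate 2). No regulator passed an adjusted p of 0.05 in edgeR (1 lower and 1 higher at an unadjusted p under 0.05, and 2 lower and 1 higher without early luteal replicate 2), and DESeq2 called 1, INSIG1. INSIG1, which holds SREBP precursors in the endoplasmic reticulum and is itself an SREBP target, stood at 17.2, 10.3 and 10.7 CPM in early luteal libraries, against 48.2, 32.0 and 48.4 CPM in post-ovulatory libraries (log2 fold change -1.75 ± 0.35, SE; edgeR, adjusted p = 0.522; DESeq2, adjusted p = 0.00206). Its relative INSIG2 had the higher early luteal level, at 59.4, 70.3 and 64.2 CPM in early luteal and 36.6, 42.1 and 41.8 CPM in post-ovulatory libraries (0.69 ± 0.24; edgeR, adjusted p = 0.674). The stages did not overlap in either gene. Of the 19 regulators, 3 had early luteal fully below and 1 fully above, where 9.57% and 7.61% of all tested genes did. SREBF2, which encodes the SREBP best known for driving cholesterol genes, stood at 49.5, 7.86 and 42.2 CPM in early luteal and 77.0, 73.0 and 91.2 CPM in post-ovulatory libraries, with early luteal replicate 2 the lowest. SREBF1, which encodes the SREBP best known for driving fatty acid genes and was named after its values were seen, overlapped, at 18.2, 14.2 and 36.4 CPM in early luteal and 21.4, 26.8 and 33.0 CPM in post-ovulatory libraries. PRKAA1, a catalytic subunit of the AMP-activated kinase that inhibits ACACA protein, overlapped as well, at 59.3, 72.3 and 62.2 CPM in early luteal and 63.4, 43.1 and 56.3 CPM in post-ovulatory libraries.

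The enzymes of cholesterol synthesis, measured in the same libraries, had larger median differences than the 10 fatty acid genes. In the mevalonate arm 8 of 9 genes were lower, with a median of -1.35, and from squalene to cholesterol 10 of 13 were lower, with a median of -1.15. At an unadjusted p under 0.05 edgeR counted 6 of the 9, 8 of the 13 and 4 of the 10, all lower, where 3.54% of all tested genes were. DESeq2 called 5, 4 and 2 lower, where it called 0.544% of 17285 genes lower. The difference between these groups of genes was not tested. Without early luteal replicate 2 the medians were -1.22 and -1.06 for the sterol groups and -0.90 for the fatty acid genes.

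**Figure D5:**
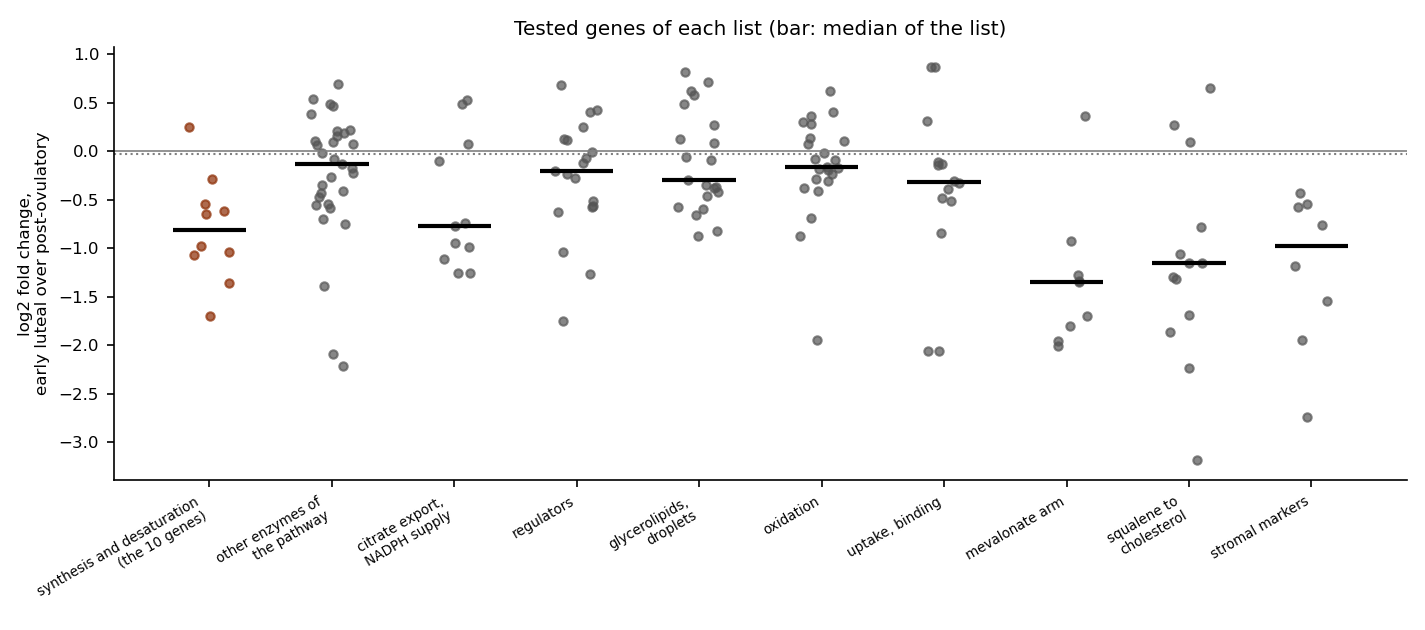
Log2 fold change (early luteal over post-ovulatory) of the tested genes of each group, 1 point per gene, with the group median as a bar; the dotted line is the median of all tested genes. The 10 fatty acid genes have a median of -0.81, between those of the sterol groups and that of the other enzymes of their own pathway (-0.13).

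Markers of stroma had lower early luteal levels alongside the 10 genes. All 8 stromal markers, collagens among them, had a lower early luteal mean level by the edgeR estimate. Their median log2 fold change was -0.97 (-1.18 without early luteal replicate 2), against -0.81 (-0.90) for the 10 genes. At an unadjusted p under 0.05 edgeR counted 4 of the 8 (COL1A1, COL3A1, COL1A2 and PI16), all lower, where 3.54% of all tested genes were. DCN, LUM, PDGFRA and PDGFRB were not counted, with log2 fold changes of -0.44, -0.58, -0.55 and -0.76. Early luteal lay fully below in 5 of the 8 and fully above in 0, where 9.57% and 7.61% of all tested genes did. DESeq2 called 2 of them lower, where it called 0.544% of genes lower. Their summed level ran from 687 to 1019 CPM in early luteal libraries, against 1160 to 2421 CPM in post-ovulatory libraries, with no marker at 0. The collagen gene COL1A1, which had the lowest p of the 8, stood at 91.3, 135 and 104 CPM in early luteal libraries. It stood at 497, 597 and 184 CPM in post-ovulatory libraries. The part of stromal content in the lower levels of the fatty acid genes was not tested. Of the 9 cell type marker lists, the stromal list was the only one whose summed level did not overlap between the stages, but a sum follows its most abundant gene. Of 7 tested leukocyte markers all 7 had a lower early luteal estimate, with a median log2 fold change of -0.57 (-0.22 and 6 of 7 without early luteal replicate 2) and none at an unadjusted p under 0.05 in edgeR. Of 6 endothelial markers 4 were lower, with a median of -0.79, and FLT1 and PLVAP had an unadjusted p under 0.05 in edgeR. All 6 smooth muscle markers had a higher early luteal estimate, with a median of 0.57 and none at an unadjusted p under 0.05. Of 5 tested markers listed for secretory epithelial cells 4 were lower, with a median of -0.63 (-0.25 without early luteal replicate 2). None had an unadjusted p under 0.05 in edgeR. The median of -0.63 is the value of KRT8, a general epithelial gene like EPCAM and KRT18, and so does not speak for secretory cells alone. The summed level of this list overlapped, at 1404 to 3252 CPM in early luteal and 983 to 11964 CPM in post-ovulatory libraries. The part of these cell types was not tested either. Adipocytes express SCD and FASN strongly. Of 9 adipocyte markers with a row, 4 were at or under 3 counts in every library, among them RETN with no count and LEP with 1, and ADIPOQ had 13 counts over the 6 libraries. FABP4 had 57 counts, at 0, 0 and 0.133 CPM in early luteal libraries, against 0.893, 4.42 and 0.256 CPM in post-ovulatory libraries, without overlap, and was too low to be tested in edgeR. LIPE had 270 counts and CIDEA 159, and both overlapped between the stages. The summed level of the list ran from 2.44 to 6.83 CPM in early luteal and from 4.92 to 10.1 CPM in post-ovulatory libraries. Ciliated cell markers summed to between 1708 and 1762 CPM in early luteal and between 1216 and 2573 CPM in post-ovulatory libraries, and smooth muscle markers to between 970 and 8926 CPM in early luteal and between 2754 and 5285 CPM in post-ovulatory libraries. The immediate early transcripts, induced within minutes of disturbance, summed to between 466 and 1711 CPM in early luteal and between 349 and 944 CPM in post-ovulatory libraries. Of 9 tested, 7 had a higher early luteal estimate, with a median log2 fold change of 0.80 (0.69 without early luteal replicate 2). At an unadjusted p under 0.05 edgeR counted 1, ATF3, as higher, where 3.57% of all tested genes were, and 0 without early luteal replicate 2. Early luteal lay fully above in 0 of the 9, where 7.61% of all tested genes did. The part of handling was not tested.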

How the data were processed

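The authors deposited 1 table of whole-number read counts per Ensembl gene for the 6 libraries, with no normalization. Per the labels' protocols, stranded mRNA libraries were read in pairs on an Illumina instrument. The submitters' processing notes list build Sscrofa11.1 with STAR, Trim Galore and FastQC 0.11.4. How reads were assigned to genes is not given in the sources used here. Columns were matched to libraries by header words, and that of early luteal replicate 3 lacks a letter of its label. Symbols came from a table pairing 15623 identifiers with names, and missing ones were filled from the Ensembl identifiers given in RefSeq. Gene positions came from RefSeq for the same build.

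Counts were tested with edgeR 4.0.16 (R 4.3.3; TMM scaling, filterByExpr, robust quasi-likelihood fit on stage alone), two-sided, with Benjamini-Hochberg adjustment over 17920 genes and a threshold of 0.05. The SE is the log2 fold change over the root of F. Alternatives used DESeq2 1.42.0, limma 3.58.1 (voom), other scalings, filters and thresholds, the replicate number as a block, and each library left out. Scripts were tested on simulated counts. Principal components used log2 CPM with a prior count of 2.

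The 10 genes and all gene lists were chosen with earlier results of these data known. All 10 are named; of the other lists described, the 3 genes with the lowest p and the 1 with the highest mean CPM are named. Exceptions are said beside the value. Cell type markers named with values were picked to describe the tissue.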

Additional observations from a re-analysis of the deposited data

How the results depend on the processing

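The number of genes past an adjusted p of 0.05 was 0 in edgeR with all libraries, with each library left out in turn (0 to 0), with 3 other scalings, with a filter of 1 CPM in 3 libraries, at thresholds of 0.1 and 0.01, and in limma voom (1275 genes in edgeR at an unadjusted p under 0.05). It was 8 without a filter on low counts, 9 in limma voom with sample quality weights and 177 in DESeq2. Of the 10 fatty acid genes, 0 passed in each of these except DESeq2, which called 2, and DESeq2 without early luteal replicate 2, a setting added after seeing the data, which also called 2. The median log2 fold change of the 10 genes lay between -0.98 and -0.71 under all 17 other settings, and 9 were lower in each. No gene of the 10 reversed its direction in any of the 17. The settings at thresholds of 0.1 and 0.01 reused the main fit, so medians and directions could not change there. Deviations of same-numbered libraries from their stage means correlated at 0.052, -0.082 and 0.13, and those of differently numbered libraries at -0.16 to 0.063. With 3 libraries per stage these values cannot settle whether the replicate number pairs the libraries. Adding the replicate number as a block, edgeR called 0 genes and 0 of the 10, with a median of -0.86 and 9 lower. FADS2 in early luteal replicate 2 rested on 36 counts, the fewest behind any of the 10 genes' values.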

Other observations

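Of 21 tested genes of glycerolipid synthesis and lipid droplets, 13 were lower in early luteal ampulla, with a median log2 fold change of -0.30 (-0.05 without early luteal replicate 2), and none had an unadjusted p under 0.05 in edgeR (1 lower and 1 higher without early luteal replicate 2) or a call in DESeq2. PNPLA2, the triglyceride lipase of lipid droplets, stood at 18.7, 15.3 and 24.3 CPM in early luteal libraries, against 9.16, 13.1 and 13.4 CPM in post-ovulatory libraries. GPAT4, which starts glycerolipid synthesis, stood at 33.6, 12.3 and 33.4 CPM in early luteal libraries and 49.2, 44.5 and 46.9 CPM in post-ovulatory libraries. The stages did not overlap in either gene, but both were named for their low p. Of the 21 genes, 1 had early luteal fully below and 2 fully above, where 9.57% and 7.61% of all tested genes did. The acyltransferases of the next step overlapped between the stages. AGPAT3 stood at 45.2, 28.0 and 29.3 CPM in early luteal libraries, against 77.7, 38.1 and 46.5 CPM in post-ovulatory libraries. AGPAT5 stood at 68.6, 94.6 and 61.9 CPM in early luteal libraries, against 87.4, 56.8 and 68.4 CPM in post-ovulatory libraries.

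Of 23 genes of fatty acid oxidation, 15 were lower, with a median of -0.16 (-0.01 without early luteal replicate 2), and none passed in edgeR or DESeq2. At an unadjusted p under 0.05 in edgeR 2 were lower and 1 higher, where 3.54% and 3.57% of all tested genes were. CPT1A, the carnitine transferase that lets long chains into mitochondria, stood at 21.9, 28.2 and 35.4 CPM in early luteal libraries, against 56.5, 61.4 and 38.9 CPM in post-ovulatory libraries. CPT1C, its relative best known from brain, stood at 51.9, 6.23 and 44.4 CPM in early luteal libraries and 109, 140 and 147 CPM in post-ovulatory libraries. DECR1, which handles double bonds during oxidation, had the higher early luteal level, at 97.0, 143 and 94.4 CPM in early luteal libraries and 73.5, 67.6 and 76.3 CPM in post-ovulatory libraries. None of the 3 overlapped between the stages, but they were named for their low p. Of the 23 genes, 3 had early luteal fully below and 1 fully above, where 9.57% and 7.61% of all tested genes did. HADH, a dehydrogenase of the oxidation spiral, stood at 145, 144 and 137 CPM in early luteal libraries and 164, 153 and 137 CPM in post-ovulatory libraries.

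Of 14 tested genes of fatty acid uptake and binding, 11 were lower, with a median of -0.31 (-0.10 without early luteal replicate 2), and none passed in edgeR or DESeq2. At an unadjusted p under 0.05 in edgeR 2 were lower, where 3.54% of all tested genes were. Early luteal lay fully below in 3 of the 14 and fully above in 0, where 9.57% and 7.61% of all tested genes did. MFSD2A, a carrier of lysophospholipids with polyunsaturated chains, stood at 1.48, 1.63 and 4.72 CPM in early luteal libraries, against 15.0, 5.30 and 12.6 CPM in post-ovulatory libraries, without overlap. DBI, the acyl-CoA binding protein, stood at 42.1, 52.4 and 39.5 CPM in early luteal libraries and 108, 61.6 and 70.6 CPM in post-ovulatory libraries. FABP3, a fatty acid binding protein, was low, at 0.644, 0 and 0.399 CPM in early luteal libraries and 2.90, 1.01 and 0.863 CPM in post-ovulatory libraries. ACBD3, a Golgi protein with an acyl-CoA binding domain, overlapped, at 85.2, 127 and 104 CPM in early luteal libraries and 126, 98.3 and 125 CPM in post-ovulatory libraries.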
